A study of Mus musculus with 464 samples.

Results

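Insulin-like growth factors (IGFs) act on cells through 2 receptors of very different kinds, and the amount that reaches them is set by secreted IGF binding proteins. This account follows 8 mouse genes of that system, the receptors Igf1r and Igf2r and the binding proteins Igfbp2, Igfbp3, Igfbp4, Igfbp5, Igfbp6 and Igfbp7, among the 21973 genes of a single-cell expression table. The genes were chosen by name. Igf1r encodes a tyrosine kinase that signals for growth and survival when IGF1 or IGF2 binds. Igf2r encodes the cation-independent mannose 6-phosphate receptor, which removes IGF2 from outside the cell and also carries newly made enzymes to lysosomes. The binding proteins hold IGFs outside the cell, where they can prolong their life, withhold them from receptors or release them after cleavage. IGFBP7 binds IGFs only weakly, and Igfbp2 is known as an abundant transcript of the embryonic neural epithelium.

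The cells came from R1, a line of mouse embryonic stem cells that had been kept in 15% serum replacement with 1000 U/ml of the cytokine LIF. After 48 hours as hanging drops, the embryoid bodies were moved to medium with retinoic acid (0.5 mM per the labels) for 4 days. The C1 microfluidic system isolated the cells, and SMART-Seq V4, a full-length chemistry without molecular identifiers, made their cDNA. Every sample belongs to this 1 treatment, no untreated culture is compared here, and the study's stated purpose was a clustering method.

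The table states no unit, and its values were taken as TPM, a share of transcripts corrected for length. On that reading, levels of different genes can be set side by side. The columns fall into 2 sets by name, and 55 columns of the first set each had a near copy in the second. Within these pairs log2(TPM + 1) correlated at 0.946 to 0.990 across genes, and no other 2 columns correlated above 0.917. Each pair was averaged and counted as 1 cell, after cells with fewer than 2000 genes above 0 or over 20% mitochondrial transcripts had been left out. The cells have 1 source and are not replicates. No p-values are therefore given, intervals of shares are exact 95% binomial intervals that cover counting error only, and a gene was called higher or lower where mean TPM differed by 2-fold or more. Sequencing depth is unknown, and the number of genes above 0 is given in its place.

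Cells were placed by the number of 10 markers of each kind detected at 1 TPM or more. The endoderm state (at least 5 endoderm markers, such as Gata4, Sox17 and Dab2, and neither neural rule met) held 55 cells, 13.6% of all. A further 49 cells, 12.2%, passed the endoderm rule together with a neural rule and are called endoderm and neural. Doublets were not called, so whether this class holds captures of more than 1 cell was not tested. The neuron state (at least 7 neuron markers, such as Nefl and Stmn2) held 26.3% of cells, and the progenitor state (at least 5 neural progenitor markers, such as Sox1, Sox2 and Pax6, without the neuron rule) 44.2%. The last 15 cells met no rule. The median number of genes above 0 was 6144 in endoderm, 8026 in endoderm and neural, 7071.5 in neuron and 6658.5 in progenitor cells. Of the 55 repeat pairs, 54 fell in the same state by both columns. The rules have edges: 6 cells stood at exactly 5 endoderm markers and 6 at 4, 20 at exactly 5 progenitor markers and 22 at 4, and 20 at exactly 7 neuron markers and 18 at 6. Markers of other cell types were scarce, with 3 or more mesenchyme markers in 2 cells, endothelial markers in 4, neural crest markers in 8, pluripotency markers in 8 and floor plate markers in 16.

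The promoters of Igfbp2 and Igf2r are shown because these genes differed most clearly between endoderm and progenitor cells, in opposite directions. Each window runs from 250 bases before to 50 bases after the annotated start, 5′ to 3′ on the gene's own strand, from RefSeq on GRCm38.p6, and capitals mark the GC box GGGCGG. Igfbp2 lies on the plus strand at chr1:72824480-72852474 with its window at chr1:72824230-72824529, and Igf2r on the minus strand at chr17:12682406-12769706 with its window at chr17:12769657-12769956.
Igfbp2: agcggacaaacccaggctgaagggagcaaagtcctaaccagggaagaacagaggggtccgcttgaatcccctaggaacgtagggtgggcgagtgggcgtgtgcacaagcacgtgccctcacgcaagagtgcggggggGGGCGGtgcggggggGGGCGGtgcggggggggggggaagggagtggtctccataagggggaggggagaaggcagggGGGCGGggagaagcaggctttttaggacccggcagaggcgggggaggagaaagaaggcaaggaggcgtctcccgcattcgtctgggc
Igf2r: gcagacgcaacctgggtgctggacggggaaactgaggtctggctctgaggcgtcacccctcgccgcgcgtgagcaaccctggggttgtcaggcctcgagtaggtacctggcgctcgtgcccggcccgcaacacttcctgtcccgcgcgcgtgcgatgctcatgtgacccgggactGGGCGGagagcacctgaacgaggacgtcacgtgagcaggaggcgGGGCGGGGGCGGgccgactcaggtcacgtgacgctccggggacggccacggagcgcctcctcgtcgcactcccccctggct
Both windows held 3 GC boxes, neither held the TATA box TATAAA, the CCAAT box CCAAT or the GATA motif AGATAA, and both held the letters ACGTG. On either strand, the GC box was present in 35.7% of 32851 mouse promoter windows of this length, TATAAA in 13.6%, CCAAT in 37.4%, AGATAA in 11.2% and ACGTG in 19.6%. The Igfbp2 window had 67% G and C with 18 CpG sites, and the Igf2r window 70.7% with 34, beside medians of 52.7% and 7 over all windows. The windows of Igf1r and Igfbp7 also held GC boxes, 2 and 4, and those of the remaining members none. These matches describe letters only.

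Igf2r was the 1 member called higher in endoderm cells than in progenitor cells, whereas its counterpart Igf1r was called in no comparison. Igf2r was detected in 56.4% of endoderm cells (95% interval 42.3 to 69.7), 55.1% of endoderm and neural cells (40.2 to 69.3), 33% of neuron cells (24.2 to 42.8) and 34.3% of progenitor cells (27.3 to 41.7). Its level ran from 0 to 19.75 TPM with a median of 2.05 in endoderm cells, from 0 to 12.8 TPM with a median of 1.06 in endoderm and neural cells, from 0 to 19.2 TPM with a median of 0.095 in neuron cells, and from 0 to 14.6 TPM with a median of 0.155 in progenitor cells. The ranges overlap fully, and the states differ in how many cells carry the transcript and in its middle level. Mean Igf2r was 4.05 TPM in endoderm cells against 1.52 TPM in progenitor cells, a 2.65-fold difference (log2 1.41), with log2 values of 1.40 and 1.34 in the 2 column sets alone. Of 16 alternatives 1 ended this call, the difference of mean log2(TPM + 1), at 0.80. Against the neuron state, with a mean of 1.76 TPM, it was 2.30-fold higher in endoderm cells (log2 1.20). That call was lost in 4 of 16 alternatives, at 0.94 with markers counted from 5 TPM, 0.74 in column set 1 alone, 0.87 with 1 TPM added and 0.81 by the difference of mean log2(TPM + 1). In the endoderm and neural state, at a mean of 2.43 TPM, Igf2r was 1.59-fold above progenitor cells and not called. In mouse, Igf2r is an imprinted gene overlapped by the antisense RNA Airn, which is not a row of the table, and since the sources used here do not say that counting used strand, reads of the pair may not have been told apart.

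Igf1r lies on chr7:67952257-68233668 on the plus strand. It was detected in 41.8% of endoderm cells (28.7 to 55.9), 63.3% of endoderm and neural cells (48.3 to 76.6), 77.4% of neuron cells (68.2 to 84.9) and 63.5% of progenitor cells (55.95 to 70.6). Its medians were 0.43, 1.56, 3.50 and 2.23 TPM in the same order, and its highest values 30.2, 17.9, 30.6 and 46.97 TPM. The detected share was lowest in endoderm cells and highest in neuron cells, and the intervals of these states do not overlap. The means were close, at 3.36 TPM in endoderm, 3.39 in endoderm and neural, 4.91 in neuron and 4.54 in progenitor cells. The log2 ratio of endoderm over progenitor cells was -0.43 and that of neuron over progenitor cells 0.11. Across cells, Igf1r had a Spearman correlation of 0.25 with the number of genes above 0, which was lowest in endoderm, and the part of gene number in these shares was not tested.

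**Figure D1:**
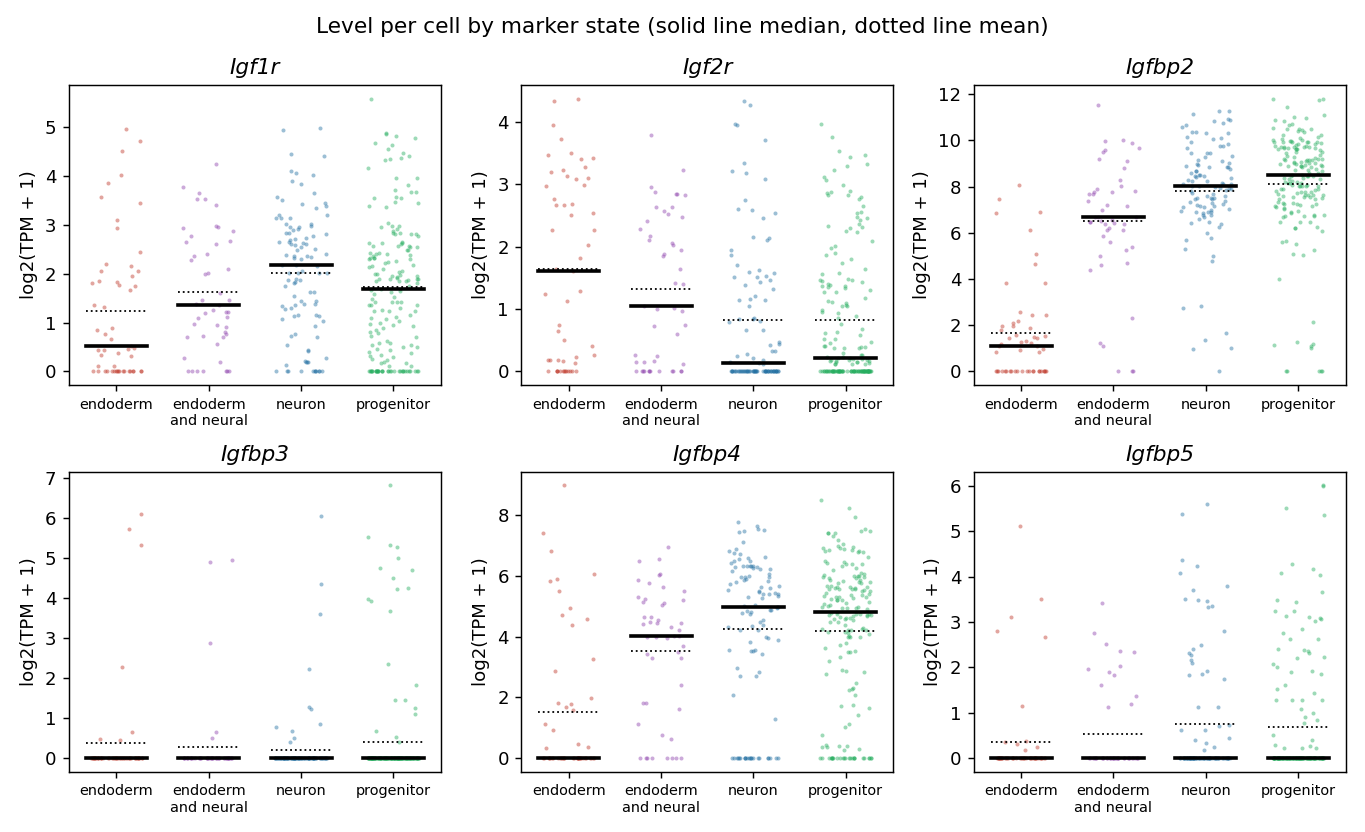
Level of the 6 more widely detected genes in each cell as log2(TPM + 1), with cells grouped by marker state; each point is 1 cell, solid lines are medians and dotted lines means. Igf2r sits higher in endoderm cells than in progenitor cells, with medians of 2.05 and 0.155 TPM, while Igfbp2 sits far lower there, with medians of 1.14 and 359.9 TPM.

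The order of the receptors differed between states in the 2 column sets combined. Igf2r exceeded Igf1r in 58.2% of endoderm cells, 36.7% of endoderm and neural cells, 20.8% of neuron cells and 26.97% of progenitor cells. The ratio of mean Igf1r to mean Igf2r was 0.83 in endoderm, 1.39 in endoderm and neural, 2.79 in neuron and 2.98 in progenitor cells. Igf2r without Igf1r was found in 19 endoderm cells (34.5%), 10 endoderm and neural cells (20.4%), 7 neuron cells (6.6%) and 17 progenitor cells (9.55%). In endoderm cells the pooled detection intervals of the receptors overlap, and the order of their shares differed by column set. Igf2r was detected in 56.25% and Igf1r in 34.4% of endoderm columns in set 1, and in 48.4% and 51.6% in set 2. Both receptors were detected together in 21.8% of endoderm, 34.7% of endoderm and neural, 26.4% of neuron and 24.7% of progenitor cells. Across all cells their Spearman correlation was 0.03, which at such detection rates is no finding.

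**Figure D2:**
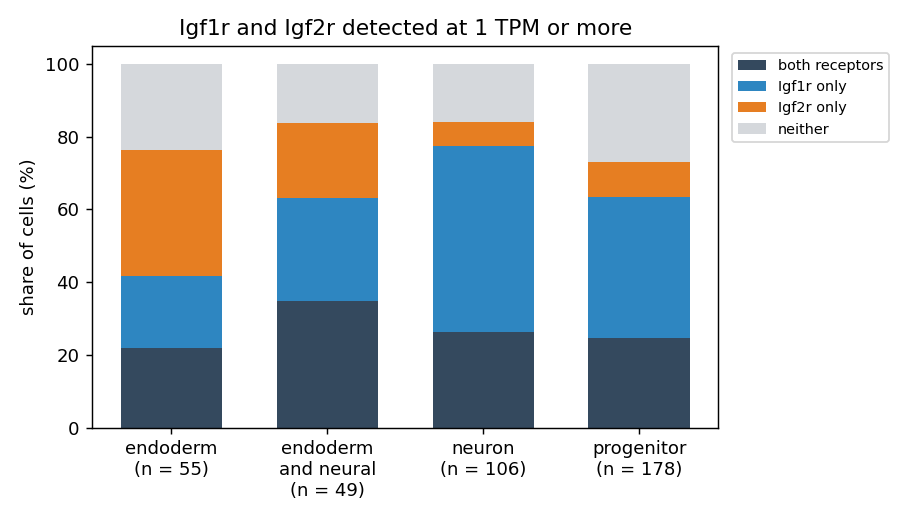
Share of cells (%) in each marker state with both receptors, Igf1r only, Igf2r only or neither at 1 TPM or more. Cells with Igf2r only make up 34.5% of the endoderm state and 9.55% of the progenitor state, and cells with Igf1r only 50.9% of the neuron state.

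Of the 8 genes, 6 were detected in at least 10 cells and entered the 2-fold rule, beside 13593 genes of the whole table. Between endoderm and progenitor cells, Igf2r was higher and Igfbp2, Igfbp4 and Igfbp5 were lower in endoderm, while Igf1r and Igfbp3 passed in neither direction. Of all genes, 20.5% were called higher and 29.9% lower in this comparison, with a median log2 ratio of -0.28 over all genes and -0.74 over the 6. Between neuron and progenitor cells the only call was Igfbp3, lower in neuron cells, where 15.2% of all genes were called higher and 9.3% lower. Between endoderm and neural cells and progenitor cells, Igfbp2 and Igfbp5 were lower, where 17.2% of all genes were called higher and 9.84% lower. Between endoderm and neuron cells, Igf2r and Igfbp3 were higher and Igfbp2, Igfbp4 and Igfbp5 lower in endoderm, where 19.6% of all genes were called higher and 31% lower. Counts of 1 to 3 among 6 genes are not far from these background shares, and the size of single differences says more than the counts.

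The largest difference was that of Igfbp2, the binding protein with the highest level in the culture. Over all cells it was detected in 90.1% and averaged 440.95 TPM, beside 39.8 TPM for Igfbp4, the next in order. In endoderm cells Igfbp2 was detected in 52.7% (38.8 to 66.3) and ran from 0 to 264.8 TPM with a median of 1.14 and a mean of 15.9 TPM. In endoderm and neural cells it was detected in 93.9% (83.1 to 98.7) and ran from 0 to 2937 TPM with a median of 100.86 and a mean of 278.46 TPM. Both states thus pass the endoderm marker rule and stand far apart in Igfbp2. Their median numbers of genes above 0 were 6144 and 8026, and the part of doublets in the second was not tested. In neuron cells it was detected in 98.1% (93.4 to 99.8) and ran from 0 to 2455 TPM with a median of 256.22 and a mean of 480.2 TPM. In progenitor cells it was detected in 97.2% (93.6 to 99.1) and ran from 0 to 3578 TPM with a median of 359.9 and a mean of 572 TPM. Endoderm cells had the lowest level and the highest endoderm cell stayed under the progenitor median.

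Mean Igfbp2 was 35.9-fold lower in endoderm cells than in progenitor cells (log2 -5.16), with log2 values of -5.04 and -4.82 in the 2 column sets alone. Against neuron cells the log2 ratio of endoderm cells was -4.91. The value depended on where the marker rule was drawn: with 6 in place of 5 markers required it was -2.73, and with markers counted from 5 TPM it was -2.77, still past the rule. Markers of other states moved with this comparison: the summed TPM of 8 pluripotency markers had a median of 37.4 in endoderm cells (0 to 177.03) and 0 in progenitor cells (0 to 339.98), with Nanog, Esrrb, Tdgf1 and Utf1 under 1 TPM in every endoderm cell. The summed TPM of 10 G2/M cell cycle genes had a median of 173.22 in endoderm cells and 1545 in progenitor cells. The part of either in the Igfbp2 difference was not tested. Igfbp2 was called lower in endoderm cells under all 16 alternatives tried for these 2 comparisons. Endoderm and neural cells stood 2.05-fold below progenitor cells (log2 -1.04, -1.75 and -0.60 in the column sets), a call lost in 6 of the 16 alternatives. Neuron and progenitor cells differed by a log2 ratio of -0.25 and were not called apart. In the 55 repeat pairs, Igfbp2 got the same detection call in 94.5%, and the median difference between repeats of the pairs detected in both was 1.10-fold. The pairs were found by correlation, and the sources used here do not say which steps the 2 columns of a pair share. How much of the measurement error this difference covers is therefore unknown, and it does not cover the spread between cells.

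Among cells with at least 5 endoderm markers, Igfbp2 followed the number of progenitor markers. It was detected in 38.1% of the 21 cells with 0 progenitor markers, 58.3% of the 36 cells with 1 to 2, all 10 cells with 3 to 5, and 97.3% of the 37 cells with 6 to 10. The medians in this order were 0, 1.37, 190.3 and 101.69 TPM, and the median numbers of genes above 0 were 5862, 6315.5, 6698 and 8122. The largest rise was from the class of 1 to 2 to that of 3 to 5 progenitor markers, although only 10 cells hold the upper class. The classes were set beforehand and do not show at which marker number the rise lies. Gene number moved with the progenitor markers, and its part was not tested. Along the neuron markers, in cells with fewer than 5 endoderm markers, Igfbp2 medians were 345.16 TPM at 0 to 2 markers, 320.4 at 3 to 4, 474 at 5 to 6, 309.36 at 7 to 8 and 239.7 at 9 to 10. Its detected share was 92.8% to 98.6% in these classes.

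**Figure D3:**
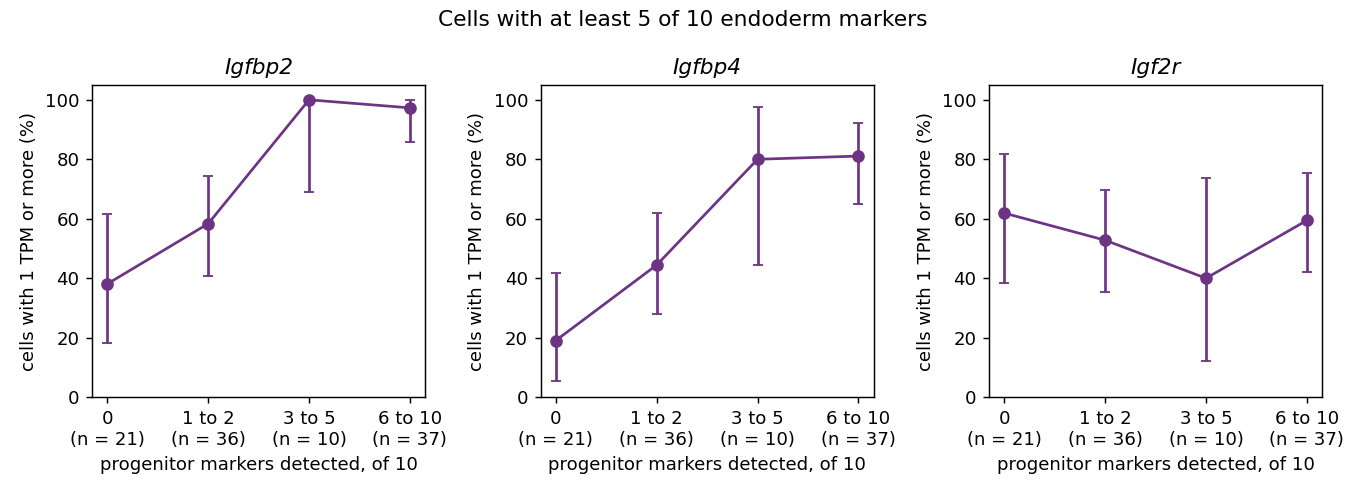
Share of cells (%) with Igfbp2, Igfbp4 or Igf2r at 1 TPM or more, against the number of progenitor markers detected, in cells with at least 5 endoderm markers; bars are exact 95% binomial intervals. Igfbp2 stands at 38.1% with 0 progenitor markers and 97.3% with 6 to 10, and Igf2r at 61.9% and 59.5% in the same classes.

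Igfbp4, on chr11:99040005-99052655 on the plus strand, encodes the binding protein that is cleaved by pappalysins in the presence of IGF. It was detected in 34.5% of endoderm cells (22.2 to 48.6), 79.6% of endoderm and neural cells (65.7 to 89.8), 79.2% of neuron cells (70.3 to 86.5) and 81.5% of progenitor cells (74.96 to 86.9). The medians were 0, 15.3, 30.8 and 26.9 TPM in this order, and the highest values 507, 123.9, 219.96 and 358.45 TPM. Endoderm cells thus stood apart in detection, and the other 3 states were alike within their intervals. The mean was 20.8 TPM in endoderm cells and 44.3 TPM in progenitor cells (log2 -1.09), and 1 endoderm cell held 44.3% of the endoderm sum. With the highest cell of each state left out the log2 ratio was -1.85. It was -0.53 in column set 1 and -1.02 in set 2, and the call was lost in 4 of 16 alternatives. In cells with at least 5 endoderm markers Igfbp4 was detected in 19.05%, 44.4%, 80% and 81.1% at 0, 1 to 2, 3 to 5 and 6 to 10 progenitor markers.

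Igfbp5 lies next to Igfbp2 on chromosome 1, at chr1:72858065-72874865 on the opposite strand, with 5590 bases between the genes. It was detected in 10.9% of endoderm cells (4.11 to 22.2), 26.5% of endoderm and neural cells (14.9 to 41.1), 23.6% of neuron cells (15.9 to 32.8) and 23.03% of progenitor cells (17.1 to 29.9). Medians were 0 in all 4 states, and the highest values were 33.98, 9.78, 47.9 and 63.7 TPM. The intervals of the states overlap. The mean was 1.20 TPM in endoderm cells and 2.49 TPM in progenitor cells (log2 -1.05), but the log2 ratio was -3.09 in column set 1 and -0.31 in set 2, and the call was lost in 6 of 16 alternatives. In endoderm and neural cells the mean was 0.94 TPM (log2 against progenitor cells -1.40, with -0.42 and -1.83 in the sets). Igfbp2 and Igfbp5 had a Spearman rho of 0.22 over all cells, the highest between any 2 of the 6 more widely detected genes. Igfbp2 with Igfbp4 came next, at 0.20. Within states the rho of Igfbp2 with Igfbp5 was 0.30 in neuron and 0.17 in progenitor cells. Igfbp5 was detected in only 21.3% of all cells, so these values cannot show how closely the neighbours vary together. The part of their shared neighbourhood was not tested.

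Igfbp5 was more frequent in cells with markers of the floor plate, the ventral midline of the neural tube, than in the other cells. It was detected in 11 of the 16 cells with 3 or more of 8 floor plate markers (68.8%, 41.3 to 88.98), against 19.4% of the other cells, at mean levels of 12.1 and 1.76 TPM. Both cells with 3 or more mesenchyme markers also had it, at a mean of 25.95 TPM, against 20.9% of all other cells. Inside the neuron state, Igfbp5 was detected in 5 of 7 cells with 3 or more floor plate markers, against 20 of 99 others. Inside the progenitor state it was detected in 5 of 6 such cells, against 20.9% of the others. Of the 16 floor plate marker cells, 7 were neuron, 6 progenitor and 3 endoderm and neural cells. The marker Corin was under 1 TPM in every neuron cell, and Shh and Corin in every endoderm and neural cell. Whether these are floor plate cells was not tested. The 16 cells had more genes above 0, with a median of 8093 against 6650 in the other cells. The part of gene number was not tested. Igfbp3 was detected in 5 of the 16 cells (31.3%, 11.02 to 58.7) against 6.98% of the others, intervals that rest on few cells.

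Igfbp3, the main carrier of IGFs in blood, lies on chr11:7206086-7215498 on the minus strand and was detected in 32 cells (7.94%). The share was 7.27% in endoderm cells (2.02 to 17.6), 6.12% in endoderm and neural cells (1.28 to 16.9), 5.66% in neuron cells (2.11 to 11.9) and 10.7% in progenitor cells (6.55 to 16.2), and the highest values were 67.4, 29.8, 65.5 and 112.14 TPM. Few cells with high values therefore set its means. The mean was 0.996 TPM in neuron cells and 2.41 TPM in progenitor cells (log2 -1.27), and 1 neuron cell held 62.1% of the neuron sum. The log2 ratio was 0.13 in column set 1 and -3.32 in set 2, so the call did not hold in both. The difference of endoderm from neuron cells likewise changed direction, with log2 1.58 in all cells, -0.37 in column set 1 and 3.71 in set 2.

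Igfbp6, which favours IGF2 over IGF1, was detected in 2 cells and Igfbp7 in 3, and no comparison was made for either. Igfbp6 (chr15:102144186-102149512, plus strand) stood at 371.49 TPM in 1 progenitor cell and 7.22 TPM in 1 cell without a state. Igfbp7 (chr5:77349240-77408045, minus strand) stood at 70.5 TPM in 1 endoderm cell, 5.09 TPM in 1 neuron cell and 27.7 TPM in 1 progenitor cell. The annotated Igfbp7 gene overlaps Polr2b. None of these 5 cells had a repeat column. For Igfbp6, the exact interval of 0 of 55 endoderm cells reaches 6.49%.

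**Figure D4:**
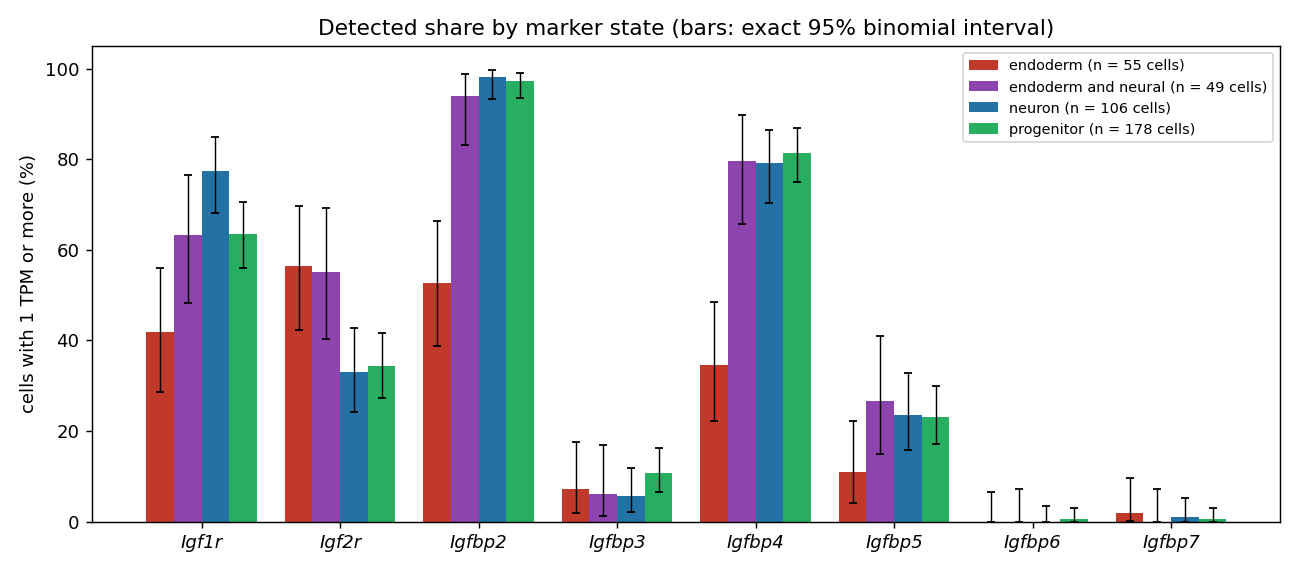
Share of cells (%) with each of the 8 genes at 1 TPM or more in each marker state; bars are exact 95% binomial intervals. Igfbp2 stands at 52.7% in endoderm cells and at 97.2% in progenitor cells, Igfbp4 at 34.5% and 81.5%, and Igfbp6 and Igfbp7 are close to 0 in every state.

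Summed over the 6 binding proteins, the mean was 42.2 TPM in endoderm cells, 304.9 in endoderm and neural cells, 529.5 in neuron cells and 624 in progenitor cells. Igfbp2 made up 37.8% of this sum in endoderm cells, 91.3% in endoderm and neural cells, 90.7% in neuron cells and 91.7% in progenitor cells. No binding protein was detected in 16 of 55 endoderm cells (29.1%), against 1 progenitor cell (0.56%). The low sum of endoderm cells is therefore mostly the low level of Igfbp2. No cell held 5 of the 6 genes, and 12 cells (2.98%) held 4.

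Within the neural states Igfbp2 varied widely, and the genes most like it across cells were those of glycolysis and low oxygen. Among 11134 other genes detected in at least 10% of cells, the highest Spearman correlations with Igfbp2 over all cells were 0.72 for Fam162a, a mitochondrial protein induced by low oxygen, 0.72 for Pgk1, a glycolytic kinase, and 0.72 for Pkm, the pyruvate kinase. Of all genes, 2.92% reached 0.3. Within the progenitor state alone the values were 0.74, 0.79 and 0.71. The cells share a culture and a chemistry, and TPM values are shares of a total, so these are descriptions. A list of 20 hypoxia and glycolysis genes was made after this was seen and holds the 3 genes just named. A high count over all cells was therefore built in and is no test. Of the 20, 15 had a correlation of 0.3 or more with Igfbp2 over all cells. The count was 6 in endoderm, 15 in endoderm and neural, 19 in neuron and 19 in progenitor cells. Of all genes, 3.79% reached 0.3 in endoderm, 1.45% in neuron and 0.88% in progenitor cells. The median correlation over the list was 0.21 in endoderm cells, 0.54 in endoderm and neural cells, 0.58 in neuron cells and 0.61 in progenitor cells. For Igf1r, Igf2r, Igfbp3, Igfbp4 and Igfbp5, none of the 20 genes reached 0.3 over all cells.

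The levels behind the correlation with Pgk1 can be read by putting the cells of a state into 4 equal classes by Pgk1, which restates that correlation and adds no second test. Median Igfbp2 in the classes from lowest to highest Pgk1 was 1.14, 0, 1.08 and 2.34 TPM in endoderm cells. It was 48.6, 77.3, 151.55 and 544 TPM in endoderm and neural cells. It was 118.09, 217.22, 355.07 and 1049 TPM in neuron cells, and 118.98, 238.84, 598 and 981 TPM in progenitor cells. In each of the 3 states with neural markers every class stood above the one before it, and in endoderm cells the medians stayed near the 1 TPM detection bound in all classes. Median Pgk1 was 272.42 TPM in endoderm cells and 620.3 TPM in progenitor cells. In progenitor cells the median number of genes above 0 was 6169, 6798.5, 6980.5 and 6324 in the classes. It was 6215, 7367.5, 7367.5 and 6807 in neuron cells and 7274.5, 8136.75, 7989.5 and 8564 in endoderm and neural cells. Over all cells the Spearman correlation of Igfbp2 with Pgk1 was 0.723, and its partial value given gene number 0.717. The part of gene number in the Igfbp2 order within states was not tested. Igfbp4 showed no such order in progenitor cells, with medians of 25.9, 32.99, 33.3 and 17.8 TPM.

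**Figure D5:**
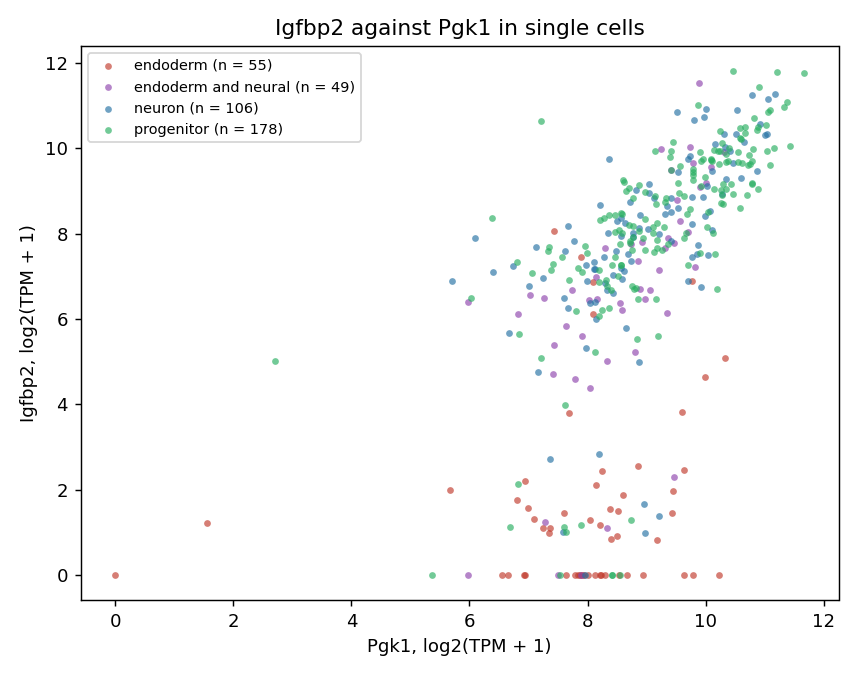
Igfbp2 against Pgk1 in single cells, both as log2(TPM + 1), coloured by marker state. In neuron and progenitor cells Igfbp2 climbs with Pgk1, with medians of 1049 and 981 TPM in their highest Pgk1 classes, while most endoderm cells lie near the bottom at any Pgk1 level.

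The other genes had weaker companions. Igfbp4 correlated at 0.40 with Marcksl1, 0.38 with Trp53i11 and 0.36 with H2afy, but at 0.24, 0.25 and 0.17 within the progenitor state. Igf1r correlated at 0.32 with Bahcc1 and 0.30 with Acvr2a, and Igf2r at 0.31 with Trap1a. For Igfbp3, Igfbp5, Igfbp6 and Igfbp7 no gene reached 0.3. Repeat pairs gave the same detection call in 89.1% for Igf1r and for Igf2r, 98.2% for Igfbp3, 92.7% for Igfbp4 and 100% for Igfbp5. In pairs that disagreed, the column that detected the gene held at most 2.12 TPM for Igf1r, 2.02 for Igf2r and 1.21 for Igfbp3. For Igfbp4 and Igfbp2 it reached 4.62 and 6.72 TPM, further from the bound.

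The transcript of IGF2, the ligand that IGF2R clears, was higher in endoderm cells. Ligand protein was not measured. Igf2 was detected in 45.5% of endoderm cells, 53.1% of endoderm and neural cells, 10.4% of neuron cells and 12.4% of progenitor cells, with means of 33.4, 14.9, 3.61 and 6.45 TPM. This is 5.17-fold above progenitor cells for endoderm and 2.31-fold for endoderm and neural cells. The second call was lost in 6 of 16 alternatives, with a lowest log2 of 0.40. Igf1 was rare, with means of 3.16, 4.05, 2.49 and 1.29 TPM, and the first 2 of these states passed the rule against progenitor cells, at 2.44-fold and 3.12-fold. Of the 4 ligand genes, Igf1 and Igf2 could be compared, and both were called higher in endoderm cells, beside 20.5% of all genes. With only 2 genes the count says little. Neither was called in neuron cells, where 9 of 16 alternatives called Igf1 higher and 3 called Igf2 lower. Insulin transcripts were too rare to compare.

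Genes of the mannose 6-phosphate route, the other cargo system of IGF2R, were higher in endoderm cells. Of 11 such genes, 10 were called higher and 0 lower against progenitor cells, beside 20.5% and 29.9% of all genes. Their median log2 ratio was 3.23, beside -0.28 for all genes. The list was chosen with earlier results of these data known, so these values describe the genes and are no test. The protease genes Lgmn, Ctsb, Ctsl and Ctsd were 33.5-fold, 21.6-fold, 15.4-fold and 14.5-fold higher, and the sugar-cleaving enzymes Gaa and Hexa 12.2-fold and 9.41-fold. M6pr, the smaller mannose 6-phosphate receptor, was 2.02-fold higher (lost in 7 of 16 alternatives, lowest log2 0.87), Gnptab, which helps to make the tag, 2.93-fold and Nagpa, which uncovers it, 4.34-fold. Igf2r, at 2.65-fold, thus moved less than most of the enzymes. In endoderm and neural cells 7 of the 11 were called higher, beside 17.2% of all genes. In neuron cells only Nagpa was, beside 15.2% of all genes, and 1 cell held 91.04% of its sum. Column set 2 alone put Nagpa at log2 -0.28 in neuron over progenitor cells. Between endoderm and neuron cells, 9 of the 11 were called higher and 1 lower in endoderm, beside 19.6% and 31% of all genes.

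Other genes of the system split by state. Htra1, a secreted protease that can cleave binding proteins, averaged 64.2 TPM in endoderm cells, 32.6 TPM in endoderm and neural cells and 1.53 TPM in progenitor cells, 41.8-fold and 21.2-fold higher. Stc1, which inhibits pappalysins, was lower in all 3 states than in progenitor cells, at 0.53 TPM in endoderm, 1.17 TPM in endoderm and neural, 0.62 TPM in neuron and 2.73 TPM in progenitor cells. The endoderm and neural call was lost in 5 of 16 alternatives. Of the 5 genes in this protease group, 3 could be compared, and 1 was called higher and 1 lower in endoderm cells. Over all genes the shares were 20.5% higher and 29.9% lower, so these counts are near the background. Insr, the insulin receptor, was 2.52-fold higher in neuron cells and 2.58-fold in endoderm and neural cells than in progenitor cells, at 6.91, 7.08 and 2.73 TPM, and was not called in endoderm cells at 3.67 TPM. The call in neuron cells was lost in 3 of 16 alternatives, with a lowest log2 of 0.75. Igfbpl1, a protein related to the binding proteins, averaged 1.08 TPM in endoderm cells, 28.8 TPM in neuron cells and 7.99 TPM in progenitor cells, lower in the first and 3.60-fold higher in the second.

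Of 10 comparable signalling genes downstream of the receptors, 1 was called higher and 3 lower in endoderm cells, 2 higher in neuron cells and 1 higher in endoderm and neural cells, all against progenitor cells. The shares over all genes were 20.5% higher and 29.9% lower in endoderm cells, 15.2% higher in neuron cells and 17.2% higher in endoderm and neural cells, so these counts are near the background. Grb10, an adaptor that restrains IGF1R and the insulin receptor, averaged 3.32 TPM in endoderm cells and 42.5 TPM in progenitor cells, 12.8-fold lower in endoderm cells. Irs1 and Grb14 were also lower in endoderm cells, both under 1 TPM in progenitor cells. Shc1 was 2.06-fold higher in endoderm cells and 2.39-fold in endoderm and neural cells. In endoderm cells that call was lost in 5 of 16 alternatives and turned to log2 -0.22 in cells of mid-range gene number. In neuron cells Grb14, at 3.52 TPM, and Pik3r1, at 12.3 TPM, were 4.16-fold and 2.09-fold higher, and the Pik3r1 call was lost in 9 of 16 alternatives (lowest log2 0.46). Akt1, Akt2, Pik3ca and Irs2 were not called in these comparisons. Among the IGF2 mRNA binding proteins, Igf2bp2 was 2.07-fold higher in endoderm cells (lost in 4 of 16 alternatives, lowest log2 0.67), Igf2bp3 averaged 10.1 TPM in endoderm cells against 41.8 TPM in progenitor cells, and Igf2bp1 was not called.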

How the data were processed

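The authors deposited 1 table of 464 cells with no stated unit. Its values were taken as TPM, because the submitters' processing notes name STAR, RSEM and mm10 (versions not given) and the values of a cell sum to 54.2% to 95.1% of the TPM total. The annotation, strand use and filters are not stated in these sources. The genes and lists were chosen with earlier results of these data known. Doublets were not called, since callers need counts.

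Columns were kept with 2000 genes above 0 and at most 20% from mitochondrial genes (458 of 464). Repeat columns (correlation of 0.93 or more) were averaged, which left 403 cells: 55 endoderm, 49 endoderm and neural, 106 neuron, 178 progenitor and 15 without a state. Of these, 169 were in column set 1, 179 in set 2 and 55 in both. Columns are not tied to single samples. Ratios are of mean TPM with 0.01 TPM added to both means, over genes at 1 TPM or more in at least 10 cells. Named beyond the 8 genes are listed pathway genes past 2-fold (Igf1, Igf2 and Insr in any case) and, for each member, up to 3 most correlated genes at 0.3 or more. Igfbp1, the hypoxia and glycolysis genes, the Pgk1 classes, the ACGTG motif and the floor plate cells within states were singled out after their values were seen. The ratio step was checked by planting known changes, larger than 2-fold, into widely detected genes of progenitor cells. This checks the arithmetic only, and sparsely detected genes and differences near 2-fold were not covered. Alternatives changed repeats, marker rules, cell filters, column set, scaling, gene filter and statistic. Tools were Python 3.11.15, numpy 2.4.6, scipy 1.17.1 and matplotlib 3.10.9. Of the 21973 gene names, 20780 matched RefSeq symbols.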

Additional observations from a re-analysis of the deposited data

How the results depend on the processing

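No paired analysis was possible because there is 1 group. For the 6 comparable genes, 16 alternatives were run in each comparison. Among calls, Igfbp3 changed direction in column set 1 alone, at log2 0.13 for neuron over progenitor cells and -0.37 for endoderm over neuron cells. Differences that were not called also turned sign, in 19 values over all 6 genes, 16 of them for neuron over progenitor cells (Igfbp5 in 7 alternatives, Igfbp4 in 4, Igf1r and Igf2r in 2 each, Igfbp2 in 1) and 3 for Igfbp3 in endoderm over progenitor cells. Among pathway genes, Shc1 turned to -0.22 (endoderm over progenitor, cells of mid-range gene number) and Nagpa to -0.28 (neuron over progenitor, set 2 alone). Of 704 pathway values, 628 kept direction and side of the rule, 59 lost the call and 12 gained it.

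Counts of members called moved as follows, with moves by 1 call between counts of 2, 3 and 4 left out. Such moves occurred in every comparison except neuron over progenitor cells. In endoderm over progenitor cells, Igfbp4 lost its lower call in 4 of 16 alternatives and Igfbp5 in 6. In endoderm over neuron cells they lost it in 3 and 6 of 16. Against progenitor cells, endoderm cells had 2 higher in cells of mid-range gene number or with all genes above 0, 0 higher by the difference of mean log2, and 1 lower after rescaling. Neuron cells had 2 lower in cells of mid-range gene number, 3 with all genes above 0, and 0 in set 1, with 1 TPM added or by mean log2. Endoderm and neural cells had 1 higher with markers at 5 TPM, 4 lower with all genes above 0, and 1 lower with 8 neuron markers, cells of mid-range gene number, set 1, rescaling, 1 TPM added or mean log2. Against neuron cells, endoderm cells had 1 higher with markers at 5 TPM or 1 TPM added, 0 higher in set 1 or by mean log2, and 1 lower in set 2.

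Rescaling by 2961 broadly detected genes moved the median log2 of all genes from -0.28 to -0.17 for endoderm over progenitor cells. The difference of mean log2 put 90.6% of all calls higher in endoderm and neural over progenitor cells, beside 63.6% as reported. That share was 47.5% in cells of mid-range gene number, 52.5% in set 1, 52.8% without the highest cell of each state, 53.4% with all genes above 0 and 76% with 1 TPM added. The causes of these shifts were not tested. With 1 culture, no value covers variation between cultures.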

Other observations

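Igfbp1, a binding protein gene next to Igfbp3 on chromosome 11, was too rare to compare. It was detected in 7 cells: 3 endoderm cells at up to 61.8 TPM, 3 endoderm and neural cells at up to 154.5 TPM, 0 neuron cells and 1 progenitor cell at 79.98 TPM. Of the 7 cells, 2 also had Igfbp3 at 1 TPM or more, both in the endoderm state.

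The 15 cells without a state had Igfbp2 from 0 to 3595 TPM, with a median of 67.1 TPM, and a median of 4690 genes above 0. Igfbp4 was detected in 11 of them. In the 8 cells with 3 or more pluripotency markers, Igfbp2 had a median of 12.5 TPM, where all other cells had 215.56 TPM, and Igf2r was detected in 6 of the 8 (75%, 34.9 to 96.8) against 37.97% of the others. Of these 8 cells, 4 were in the endoderm state, 2 in the endoderm and neural state, 1 in the neuron state and 1 in the progenitor state.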
